A study of Mus musculus with 6 samples.

Results

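The elastic fibre and microfibril genes were taken by symbol from the deposited count tables of healing flexor tendons, and all 10 (*Eln*, *Fbn1*, *Fbn2*, *Mfap2*, *Mfap4*, *Mfap5*, *Emilin1*, *Fbln1*, *Fbln2* and *Fbln5*) were found among the 53819 genes listed. Bulk RNA-seq was performed on the flexor digitorum longus (FDL) tendon of the mouse hind paw, with 3 libraries per genotype and 1 tendon per library. The tendon was cut through and sutured in mice aged 10 to 12 weeks, and was harvested at D28 post-surgery. Scx-Cre+; DTR F/+ mice (DTRScxLin) express the diphtheria toxin receptor in every cell with a history of the *Scx* promoter-driven Cre, which is a non-inducible driver, and their Scx-Cre-; DTR F/+ littermates (WT) carry the same unrecombined receptor allele. Both genotypes received 5 daily injections of diphtheria toxin (DT, 100 ng per mouse per day) from D14 to D18, so that *Scx*-lineage cells were to be depleted in DTRScxLin tendons alone. Animals of both sexes were used. The titles of the samples place D28 after depletion, whereas the protocol places it after surgery. Where 3 values are given for a genotype, they are those of replicates 1, 2 and 3 in this order.

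Elastic fibres give connective tissue its recoil. They are built from a core of cross-linked elastin, laid down on a scaffold of fibrillin microfibrils with the help of fibulins, emilins and lysyl oxidases. Microfibrils also exist without elastin and hold latent TGF-beta in the matrix through the latent TGF-beta binding proteins. In tendon, elastic fibres are sparse beside collagen and lie around cells and between fascicles.

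All 6 tendon marker genes (*Scx*, *Tnmd*, *Mkx*, *Fmod*, *Thbs4* and *Col1a1*) were detected in each library, where together they held 2.12% to 2.54% of the counts in WT and 2.51% to 3.07% in DTRScxLin tendons. The libraries held 42744138 to 48854310 counts on genes. Markers of other tissues were uneven across the libraries. A list of 27 skeletal muscle genes held 2.42% to 3.31% of the counts in WT, but 0.432%, 2.93% and 0.809% in DTRScxLin replicates 1 to 3, and all 27 genes were fitted lower in DTRScxLin tendons. A list of 14 keratinocyte genes held 0.472% and 0.321% in WT replicates 1 and 2, 0.0444% in DTRScxLin replicate 3 and no more than 0.00289% elsewhere, and 8 of its genes (*Krt5*, *Krt14*, *Krt1*, *Krt15*, *Krt2*, *Dsg1a*, *Lor* and *Ivl*) were at 0 in at least 1 library. *Xist* was counted 49303 times in WT replicate 2 and 53828 and 54082 times in DTRScxLin replicates 2 and 3, and at most 4 times elsewhere. The Y-linked *Ddx3y* was counted 4460, 0 and 3341 times in WT and 4982, 0 and 0 times in DTRScxLin tendons. By these genes WT replicate 2 and DTRScxLin replicates 2 and 3 came from females and the rest from males. Sex was thus not balanced between the genotypes, and it was not in the fits. *Scx*, the gene whose promoter drives the Cre, counted 2202, 2703 and 3064 in WT and 3476, 3407 and 3532 in DTRScxLin tendons after normalization, so that it was higher without overlap and was not called (log2 fold change 0.39, SE 0.12, edgeR adjusted p = 0.371, DESeq2 0.143). *Tnmd*, encoding the tendon membrane protein tenomodulin, overlapped between the groups (0.30, SE 0.21). So did *Mkx* (0.15, SE 0.13), *Col1a1* (0.32, SE 0.23) and *Fmod*, which was fitted lower (-0.17, SE 0.17). *Thbs4* was higher without overlap (0.65, SE 0.16, edgeR adjusted p = 0.307, DESeq2 5.94e-05). The paper reports *Thbs4* as raised from these same libraries. In bulk tissue, fewer cells of a type and less RNA per cell cannot be told apart.

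The main comparison asked which of the 10 genes differed at D28 between DTRScxLin and WT tendons. The paper lists as a limit that it could not measure how far the cells were depleted, for lack of a *Scx* reporter. *Fbn1* and *Mfap5*, which encode fibrillin-1 and a microfibril-associated glycoprotein that binds it, were 1.67-fold and 1.56-fold higher in DTRScxLin tendons, and in both genes each DTRScxLin library was above each WT library. The other 8 genes overlapped between the groups. By edgeR's quasi-likelihood test, with Benjamini-Hochberg adjustment over the 17496 genes tested, 0 of the 10 had an adjusted p under 0.05, as did 0% of all genes tested. limma-voom called 0 of the 10 as well. At an unadjusted p under 0.05, 2 of the 10 were higher and 0 lower, and 5.52% of all genes tested were higher and 5.45% lower. By DESeq2's Wald test, the same 2 of 10 genes were higher at an adjusted p under 0.05, where 1.12% of all genes with an adjusted p were called higher, 1.53% lower and 2.65% in either direction. In a single simulated data set, drawn with the means and dispersions of the edgeR fit, DESeq2 called more unchanged genes than its threshold allows. There edgeR did so to a lesser degree. A single draw does not give the error rate of the calls in these libraries. Groups that did not overlap were seen for 2 of 10 genes in the higher direction and for 0 in the lower, against 8.96% and 7.85% of all genes tested. *Fbn1* and *Mfap5* were among the matrix genes that the study picked on these same libraries, so their calls are not independent evidence. Over the 10 genes, 8 were fitted higher and the median log2 fold change was 0.30, against 51.5% of all genes fitted higher and a median of 0.0082. With the skeletal muscle level of the libraries as a covariate, 4 of the 10 were fitted higher with a median of -0.053, against 48.1% of all genes and a median of -0.012. The muscle share was below that of WT in DTRScxLin replicates 1 and 3, so this covariate and genotype cannot be fully told apart. With the muscle genes removed from the counts, 8 of the 10 were fitted higher with a median of 0.30, but this removal does not adjust the other genes. Without DTRScxLin replicate 1 the median of the 10 was 0.13, and without DTRScxLin replicate 2 or 3 it was 0.47. Together the 10 genes held 0.295%, 0.328% and 0.312% of the counts across the WT and 0.468%, 0.407% and 0.424% across the DTRScxLin libraries. This share is weighted toward *Fbn1*, *Fbln2* and *Mfap5*, which averaged 64716, 44137 and 25555 normalized counts, against 9706 for *Eln*, the next.

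**Figure D1:**
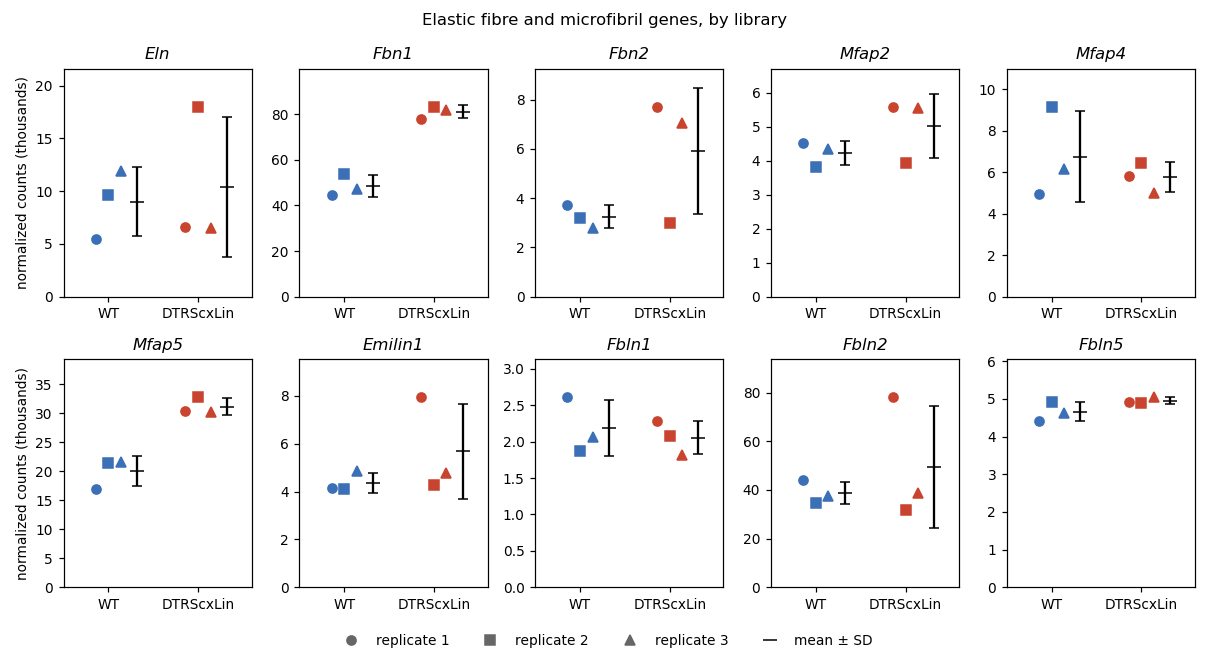
TMM-normalized counts (linear axis from 0) of the 10 genes in each of the 3 WT (blue) and 3 DTRScxLin (red) libraries, with marker shape for the replicate number and black bars for the mean ± SD. *Fbn1* and *Mfap5* have no overlap between the groups, whereas *Eln*, *Fbn2*, *Emilin1* and *Fbln2* are spread most widely among the DTRScxLin libraries.

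Levels between genes were compared per length, as CPM (counts scaled to library size) divided by the exon length in kilobases. All annotated exons of a gene were merged for this length. In WT tendons *Fbln2* (132 ± 16.0, SD, n = 3) and *Mfap5* (121 ± 16.0) ranked highest, with overlapping libraries. *Fbn1* followed at 87.1 ± 8.67, then *Mfap4* at 76.6 ± 24.7 and *Mfap2* at 76.0 ± 6.44, and these 3 overlapped with each other. The highest *Mfap4* library (103.9) also lay above the lowest *Mfap5* library (102.8). *Eln* (24.2 ± 8.72) and *Emilin1* (19.2 ± 1.84) also overlapped, and the lowest *Eln* library reached into the *Fbln5* range. *Fbln5* (14.7 ± 0.799), *Fbln1* (10.9 ± 1.92) and *Fbn2* (5.36 ± 0.773) were the lowest and did not overlap with each other. In DTRScxLin tendons the per-length order began with *Mfap5* at 189 ± 8.80, *Fbln2* at 169 ± 85.9 and *Fbn1* at 145 ± 5.07, and ended with *Fbln1* at 10.3 ± 1.16 and *Fbn2* at 9.76 ± 4.23 (SD, n = 3 each). This order of means rests partly on single libraries. *Fbln2* was above *Mfap5* and *Fbn1* in DTRScxLin replicate 1 alone (268 against 184 and 140). *Fbn2* was below *Fbln1* in DTRScxLin replicate 2 alone (4.91 against 10.3). The fibrillin transcript of these tendons was mostly *Fbn1* in both genotypes.

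*Eln* encodes tropoelastin, the soluble precursor of the elastic core. It had 5489, 9680 and 11870 normalized counts across the WT libraries and 6634, 18018 and 6544 across the DTRScxLin libraries. DTRScxLin replicate 2 was the highest of all 6 libraries, and the other 2 DTRScxLin libraries were near the lowest WT library. The spread within a genotype was 2.16-fold in WT and 2.75-fold in DTRScxLin tendons, larger than the 1.15-fold difference between them (log2 fold change 0.21, SE 0.54, edgeR adjusted p = 0.917). The log2 fold change was -0.45 without DTRScxLin replicate 2, -0.051 without WT replicate 1, and 0.81 with the skeletal muscle covariate. Vascular smooth muscle is a rich source of elastin, and 11 of 12 smooth muscle markers were fitted lower in DTRScxLin tendons, with summed levels of 0.213% to 0.305% of the counts in WT and 0.183% to 0.211% in DTRScxLin tendons. Within DTRScxLin tendons the library with the most *Eln* had the lowest smooth muscle sum (0.183%). Within WT tendons the library with the most *Eln*, replicate 3, had the highest sum (0.305%). The part of these cells in the *Eln* values was not tested.

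*Fbn1* encodes fibrillin-1, the main structural protein of adult microfibrils. Its level was 44371, 53813 and 47333 normalized counts across the WT libraries and 77784, 83270 and 81723 across the DTRScxLin libraries. Thus the lowest DTRScxLin library was well above the highest WT library, and the DTRScxLin libraries lay within 1.07-fold of each other. The log2 fold change was 0.74 with an SE of 0.13 (edgeR adjusted p = 0.260, 4.61e-07 from DESeq2). It stayed between 0.68 and 0.82 in all the alternatives tried, including 0.78 with the skeletal muscle level of the libraries as a covariate, where edgeR's adjusted p was 0.574. That p was 0.0484 without DTRScxLin replicate 2 and 0.0281 with no filter on low counts, the alternatives in which edgeR called *Fbn1*.

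The 250 bases before the *Fbn1* start were printed because this was the gene whose groups lay farthest apart relative to their spread. They come from RefSeq (GRCm38.p6, chr2:125506439-125506688, minus strand) and are written 5′ to 3′. In this and the later windows capitals mark E-boxes (CANNTG, either strand), the type of site bound by basic helix-loop-helix factors such as that encoded by *Scx*.
Fbn1: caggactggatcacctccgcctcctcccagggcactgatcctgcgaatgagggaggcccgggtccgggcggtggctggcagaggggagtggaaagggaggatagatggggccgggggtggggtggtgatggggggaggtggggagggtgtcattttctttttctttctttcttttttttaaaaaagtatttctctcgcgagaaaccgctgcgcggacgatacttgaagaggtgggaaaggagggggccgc
No E-box letters occur in this window, against 66.2% of the 32851 promoter windows of the same length in the table with at least 1. It holds 1 GC box (GGGCGG, either strand, found in 32.7% of all windows) and no match to the TATA box letters TATAAA (12.4%), the AP-1 motif TGANTCA (6.75%) or the palindromic SMAD motif GTCTAGAC (0.167%). Of the 10 genes, 6 had a promoter in the table.

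*Fbn2* encodes fibrillin-2, the fibrillin best known from developing tissue. There were 3738, 3215 and 2801 normalized counts of *Fbn2* across the WT and 7721, 2983 and 7070 across the DTRScxLin libraries. DTRScxLin replicates 1 and 3 were above all WT libraries, whereas DTRScxLin replicate 2 was within the WT range. The log2 fold change was 0.87 with an SE of 0.38 (edgeR adjusted p = 0.477, 0.067 from DESeq2). Without DTRScxLin replicate 2 it was 1.19 and was called by edgeR (adjusted p = 0.00791), and with the skeletal muscle level as a covariate it was -0.036. The library within the WT range was the only DTRScxLin library with a WT-like share of skeletal muscle counts. Among WT libraries the order was the other way. Replicate 1 had the largest muscle share (3.31%) and the most *Fbn2*, and replicate 3 the smallest share (2.42%) and the least. The muscle level differed with genotype, and its part in these values was not tested beyond that covariate.

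The microfibril-associated glycoproteins *Mfap2* and *Mfap5* are small proteins that bind fibrillins. *Mfap5* had 16955, 21465 and 21585 normalized counts across the WT libraries and 30297, 32782 and 30244 across the DTRScxLin libraries. As with *Fbn1*, no DTRScxLin library approached the WT range and the DTRScxLin libraries were close together, within 1.08-fold. The log2 fold change was 0.64 with an SE of 0.13 (edgeR adjusted p = 0.274, 0.00028 from DESeq2), and it stayed between 0.53 and 0.69 in all the alternatives. With no filter on low counts edgeR called it, at an adjusted p of 0.0423. *Mfap2* had 4518, 3828 and 4338 normalized counts across the WT libraries and 5595, 3938 and 5554 across the DTRScxLin libraries, so that it was above the WT range in the same 2 DTRScxLin libraries as *Fbn2*. Its log2 fold change of 0.25 (SE 0.15) did not pass the test (edgeR adjusted p = 0.541). It was 0.40 without DTRScxLin replicate 2, where DESeq2 called it and edgeR did not, and -0.071 with the muscle covariate.

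*Mfap4* encodes a fibrinogen-related glycoprotein that binds microfibrils and elastin. Its normalized counts were 4935, 9169 and 6176 across the WT libraries and 5841, 6441 and 4990 across the DTRScxLin libraries. All 3 DTRScxLin libraries were within the WT range, which was set at its upper end by WT replicate 2. The log2 fold change of -0.23 (SE 0.23, edgeR adjusted p = 0.732) was 0.052 without that library. In the GENCODE M21 annotation an exon of *Mapk7* on the opposite strand overlaps *Mfap4*, with 8429 counts over the 6 libraries against 37798 for *Mfap4*, and since the strand setting of the counting is not stated, the *Mfap4* counts are uncertain. Opposite-strand genes that overlap *Eln* and *Fbn1* had 34 and 170 counts in all. *Fbn2* is overlapped by *Gm26507* on the opposite strand, for which no count was matched by symbol.

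*Emilin1* encodes an elastin microfibril interface protein, and fibulin-2, encoded by *Fbln2*, binds fibrillin and tropoelastin. *Emilin1* had 4131, 4116 and 4847 normalized counts across the WT libraries and 7953, 4286 and 4789 across the DTRScxLin libraries. *Fbln2* had 43924, 34824 and 37486 across the WT and 78273, 31676 and 38640 across the DTRScxLin libraries. In both genes DTRScxLin replicate 1 stood above the other 5 libraries, which ran from 4116 to 4847 for *Emilin1* and from 31676 to 43924 for *Fbln2*. That library had the smallest share of skeletal muscle counts (0.432%) and was the only DTRScxLin library with a low *Xist* count (4). DTRScxLin replicate 3, also below WT in muscle counts (0.809%), was within the WT range for both genes. The part of muscle content or sex in these values was not tested beyond the muscle covariate. The log2 fold changes of 0.38 (SE 0.24) for *Emilin1* and 0.35 (SE 0.34) for *Fbln2* did not pass the test (edgeR adjusted p = 0.580 and 0.718). Without DTRScxLin replicate 1 they were 0.052 and -0.14, and with the muscle covariate -0.097 and -0.35.

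The promoter windows of this pair, whose levels followed each other across the libraries, are shown for comparison with that of *Fbn1*. They are the 250 bases before the start in RefSeq (GRCm38.p6, plus strand), at chr5:30913536-30913785 for *Emilin1* and chr6:91212514-91212763 for *Fbln2*, with the E-box letters in capitals.
Emilin1: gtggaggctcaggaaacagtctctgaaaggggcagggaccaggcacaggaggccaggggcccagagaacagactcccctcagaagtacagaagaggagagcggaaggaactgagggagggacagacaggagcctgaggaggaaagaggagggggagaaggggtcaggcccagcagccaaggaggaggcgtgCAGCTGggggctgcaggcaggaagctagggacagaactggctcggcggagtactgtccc
Fbln2: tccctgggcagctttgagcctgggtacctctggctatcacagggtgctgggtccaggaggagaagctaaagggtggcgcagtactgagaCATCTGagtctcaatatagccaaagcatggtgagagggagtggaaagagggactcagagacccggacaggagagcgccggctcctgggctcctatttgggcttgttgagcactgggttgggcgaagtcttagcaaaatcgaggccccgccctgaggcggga
Each window holds 1 E-box, as do 66.2% of all windows at least once, and that of *Fbln2* also holds 1 GC box. Neither holds the TATA box, AP-1 or SMAD letters searched above. GC content was 63.2% for *Emilin1* and 58.8% for *Fbln2*, close to the 59.2% of the *Fbn1* window, where the median of all windows was 52.4%.

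The fibulins *Fbln1* and *Fbln5* varied least with genotype. *Fbln5*, whose product binds tropoelastin and is needed for the assembly of elastic fibres, had 4413, 4919 and 4636 normalized counts across the WT libraries and 4915, 4902 and 5053 across the DTRScxLin libraries. The DTRScxLin libraries lay at the upper end of the WT range, with 1 of the 3 above it. *Fbln5* had a log2 fold change of 0.09 with the smallest standard error of the 10 genes (0.077, edgeR adjusted p = 0.675). *Fbln1*, a fibulin found in the core of elastic fibres and in basement membranes, had 2615, 1871 and 2063 normalized counts across the WT libraries and 2281, 2075 and 1817 across the DTRScxLin libraries. The groups overlapped almost completely (log2 fold change -0.085, SE 0.14, adjusted p = 0.858 from the same test), and without WT replicate 1 the sign turned, at 0.065.

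**Figure D2:**
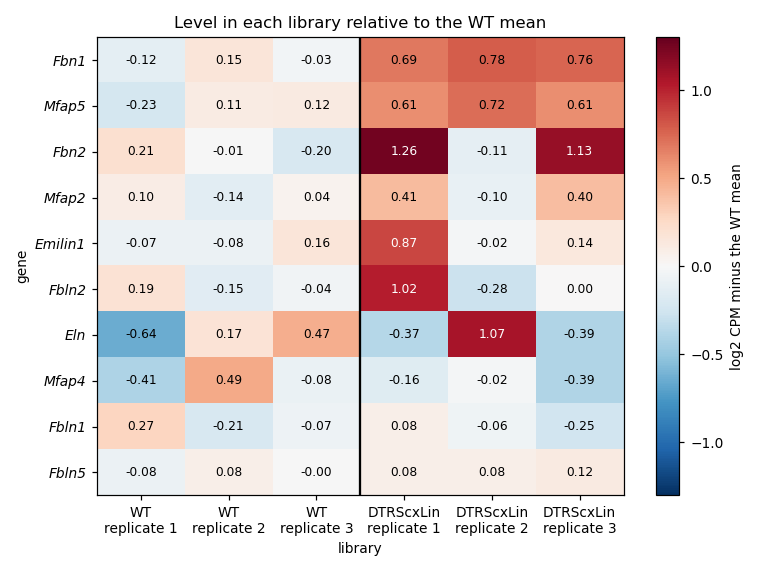
Level of each gene in each library as log2 CPM minus the mean of the 3 WT libraries, with red for higher and blue for lower and the value in each cell. *Fbn1* and *Mfap5* are higher in all 3 DTRScxLin libraries, *Fbn2* and *Mfap2* in replicates 1 and 3, *Emilin1* and *Fbln2* mainly in replicate 1, and *Eln* in replicate 2.

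Across the 6 libraries 3 pairs of genes followed each other most closely. Pearson's r of log2 CPM was 0.97 for *Fbn1* and *Mfap5*, 0.94 for *Fbn2* and *Mfap2*, and 0.91 for *Emilin1* and *Fbln2*, the 3 highest of the 45 possible pairs. The pairs were not separate, since *Fbln5* followed both *Fbn1* and *Mfap5* (r = 0.83 each), and *Fbn2* and *Mfap2* followed *Emilin1* and *Fbln2* at r = 0.71 to 0.72. The most negative values were those of *Fbln1* with *Fbln5* (r = -0.79), *Mfap2* with *Mfap4* (-0.68), *Eln* with *Mfap2* (-0.68) and *Eln* with *Fbn2* (-0.66). These values describe 6 libraries that share the genotype difference and the same normalization, and the pairs were noticed after the values were seen. Among DTRScxLin tendons the highest library exceeded the lowest 2.59-fold for *Fbn2*, 2.47-fold for *Fbln2*, 1.86-fold for *Emilin1* and 1.42-fold for *Mfap2*.

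**Figure D3:**
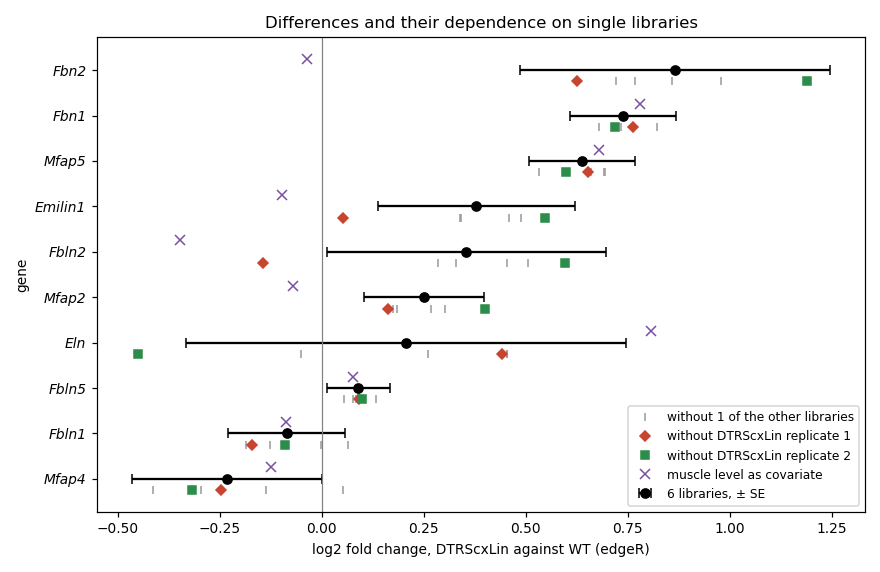
Log2 fold change of DTRScxLin against WT from edgeR for each gene (black, ± SE, n = 3 per genotype), with the values when 1 library is left out (red diamond for DTRScxLin replicate 1, green square for DTRScxLin replicate 2, grey ticks for the others) and with the skeletal muscle level as a covariate (purple cross). *Fbn1* and *Mfap5* hold their position, while *Eln* moves from 0.21 to -0.45 without DTRScxLin replicate 2 and *Fbln2* from 0.35 to -0.14 without DTRScxLin replicate 1.

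Ratios within a library, which do not depend on the normalization, were used to compare partner genes. The count ratio of *Fbn2* to *Fbn1* was 0.0843, 0.0597 and 0.0592 across the WT and 0.0993, 0.0358 and 0.0865 across the DTRScxLin libraries. It did not move one way with genotype (difference of the mean log2 ratio 0.015, SE 0.49, p = 0.9, exact two-sided permutation test, where 0.1 is the smallest p that 3 against 3 allows). *Mfap5* exceeded *Mfap2* in counts by ratios of 3.75, 5.61 and 4.98 in WT and 5.41, 8.32 and 5.45 in DTRScxLin replicates 1 to 3. The 2 groups overlapped narrowly, with 1 WT library above 2 DTRScxLin libraries (difference 0.41 on the log2 scale, SE 0.27, p = 0.3 by the same exact test), and the difference was 0.20 without DTRScxLin replicate 2 and 0.25 without WT replicate 1. The ratio of *Eln* to *Fbn1* was 0.124, 0.180 and 0.251 across the WT and 0.0853, 0.216 and 0.0801 across the DTRScxLin libraries. In DTRScxLin replicates 1 and 3 this ratio was below all WT libraries, but in replicate 2 it was within the WT range (difference -0.64 on the log2 scale, SE 0.55, p = 0.3 by the same exact test). The difference ran from -1.10 without DTRScxLin replicate 2 to -0.38 without DTRScxLin replicate 3, and was -0.39 without WT replicate 3.

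**Figure D4:**
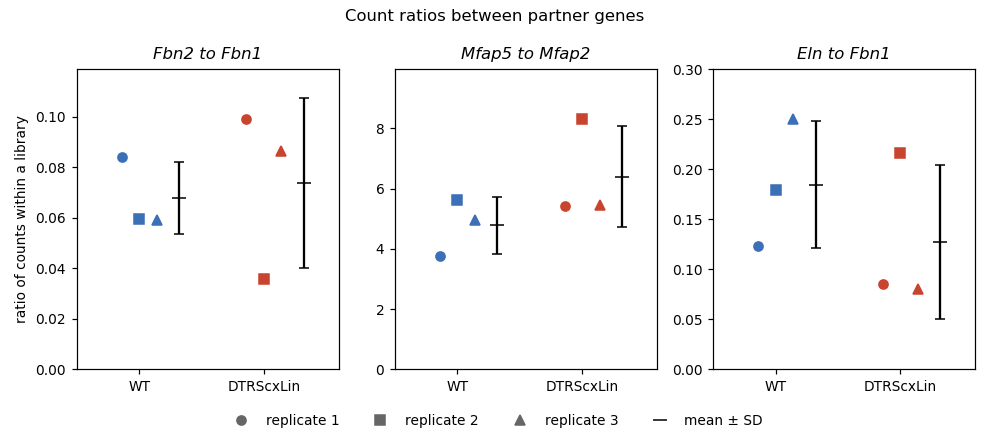
Ratio of counts between 2 genes within each library (linear axis from 0) for *Fbn2* to *Fbn1*, *Mfap5* to *Mfap2* and *Eln* to *Fbn1*, with marker shape for the replicate number and black bars for the mean ± SD of 3 libraries. The WT and DTRScxLin libraries overlap in all 3 ratios, and DTRScxLin replicate 2 stands apart from the other 2 DTRScxLin libraries in each.

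The other genes of elastic fibre formation were examined with a list of 43 genes, of which 41 passed the filter on low counts and the proteases *Mmp7* and *Elane* did not. DESeq2 called 1 of the 41 higher (*Lox*) and 0 lower, and edgeR called 0 at an adjusted p under 0.05, with 4 higher and 1 lower at an unadjusted p under 0.05. Over all genes the shares were 1.12% higher and 1.53% lower by DESeq2, and 5.52% higher and 5.45% lower at edgeR's unadjusted p. In all, 32 of the 41 (78.0%) were fitted higher, with a median log2 fold change of 0.19, against 51.5% and 0.0082 over all genes tested. With the muscle covariate, which differed with genotype, 18 of the 41 were fitted higher, with a median of -0.039. With the muscle genes removed from the counts, 32 were fitted higher, with a median of 0.18. Without DTRScxLin replicate 1 the median was 0.062 with 27 fitted higher. Each DTRScxLin library was above each WT library in 6 of the 41 (*Lox*, *Loxl1*, *Emilin2*, *Mmp2*, *Vcan* and *Itgav*) and below in 1 (*Mfap3l*), against 8.96% and 7.85% of all genes tested.

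All 5 lysyl oxidase genes, whose enzymes cross-link elastin and collagen, were fitted higher in DTRScxLin tendons, and 1 of them was called by DESeq2. *Lox* had 60088, 58159 and 60622 normalized counts across the WT libraries and 104665, 86122 and 91949 across the DTRScxLin libraries (log2 fold change 0.66, SE 0.13, edgeR adjusted p = 0.274 and 5.78e-06 from DESeq2). Like *Fbn1* and *Mfap5*, *Lox* was drawn by the study from these libraries. *Loxl1*, the lysyl oxidase most closely tied to elastin, had 10965, 11624 and 10690 across the WT and 19603, 11906 and 14072 across the DTRScxLin libraries. Its margin over WT was thus narrow in DTRScxLin replicate 2, and neither tool called it (log2 fold change 0.45, SE 0.18, adjusted p = 0.441 from edgeR and 0.188 from DESeq2).

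Of the 22 assembly, latent TGF-beta binding and fibrillin-processing genes, 14 were fitted higher and 8 lower, and neither tool called any. *Emilin2*, a relative of *Emilin1*, had 3149, 3775 and 4044 normalized counts across the WT libraries and 4408, 6347 and 4575 across the DTRScxLin libraries. Unlike *Emilin1*, it was without overlap and highest in DTRScxLin replicate 2 (log2 fold change 0.48, SE 0.16, edgeR adjusted p = 0.395). The 4 latent TGF-beta binding protein genes overlapped between the groups, with log2 fold changes of 0.31 for *Ltbp1*, 0.44 for *Ltbp2*, 0.19 for *Ltbp3* and -0.17 for *Ltbp4*. *Efemp2*, which encodes the fibulin that recruits lysyl oxidase to tropoelastin, overlapped as well (0.28, SE 0.20), as did *Fn1*, the fibronectin on which fibrillin is laid down (0.37, SE 0.25). *Mfap3l* was lower without overlap, with 1854, 1897 and 1875 normalized counts across the WT libraries and 1223, 1613 and 1650 across the DTRScxLin libraries (log2 fold change -0.33, SE 0.12, edgeR adjusted p = 0.428).

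The elastin-degrading proteases gave 5 of 6 tested genes fitted higher, and neither tool called any with all libraries and no replicate block. The 5 included *Ctss*, which was level between the genotypes (log2 fold change 0.0018, SE 0.17). *Mmp9*, encoding a gelatinase that cleaves elastin, had 1640, 577 and 287 normalized counts across the WT libraries and 4520, 567 and 872 across the DTRScxLin libraries, so that its log2 fold change of 1.25 (SE 1.13) came with wide overlap. With the replicate block DESeq2 called *Mmp9*, *Emilin2* and *Vcan* beside *Lox*. *Mmp12*, the macrophage elastase, overlapped at -0.28 (SE 0.41), and a list of 12 macrophage markers held 0.376% to 0.461% of the counts in WT and 0.412% to 0.451% in DTRScxLin tendons. *Mmp2* was without overlap by a margin of 171329 normalized counts in the lowest DTRScxLin library over 170402 in the highest WT library. All 8 proteoglycan and integrin partners were fitted higher. The integrin subunit *Itgav*, part of receptors that bind fibrillin-1, had 4375, 4493 and 4277 across the WT and 6095, 5147 and 5197 across the DTRScxLin libraries (log2 fold change 0.32, SE 0.092, edgeR adjusted p = 0.347). *Vcan*, encoding the proteoglycan versican that binds fibrillin, was also without overlap (0.42, SE 0.20).

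**Figure D5:**
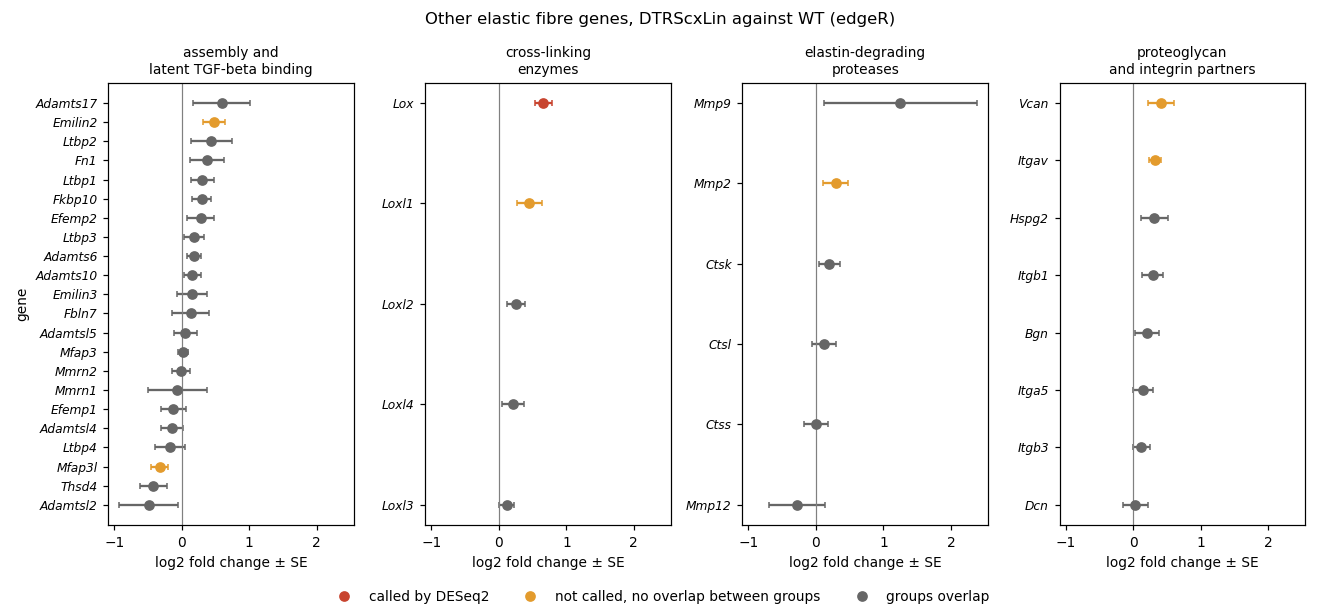
Log2 fold change of DTRScxLin against WT from edgeR (± SE, n = 3 per genotype) for the 41 tested genes of the wider list, in 4 panels by role, with red for the gene called by DESeq2, orange for genes not called but without overlap between the groups, and grey for the rest. Most points lie to the right of 0, and *Lox* is the single red point.

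The genes whose pattern was most like those of *Fbn1* and *Eln* were found by Pearson's r of log2 CPM over the 6 libraries, among 9896 other genes whose normalized counts averaged 500 or more. For *Fbn1* these were *Adgrd1* (r = 0.991), *Ammecr1* (0.984), *Haus6* (0.983), *Npat* (0.981) and *Col8a1* (0.981). In all 5, as in 8.96% of all genes tested, each DTRScxLin library was above each WT library. This follows largely from their being picked for likeness to *Fbn1*, which itself had no overlap. *Adgrd1*, an adhesion G protein-coupled receptor, had 3154, 3426 and 3326 normalized counts across the WT libraries and 4637, 4631 and 4532 across the DTRScxLin libraries. For *Eln* they were *Tk2* (r = 0.992), *Mrps12* (0.987), *Mbnl1* (0.984), *Ubr1* (0.981) and *Fgf7* (0.979). *Fgf7*, a growth factor made by fibroblasts, had 822, 1108 and 1152 normalized counts across the WT libraries and 943, 1593 and 828 across the DTRScxLin libraries, with DTRScxLin replicate 2 highest as for *Eln*. The match in shape did not extend to size for *Tk2*, which ranged only from 1180 to 1263 normalized counts. With 6 points and this many genes ranked, r values of this height describe the ranking only.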

How the data were processed

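RNA from 6 FDL tendons (3 per genotype) was sequenced as single-end reads. After cleaning with FastP the authors assigned reads to genes with featureCounts, and the raw counts were deposited. A second deposited table is a signal: those counts over a size factor for each library (0.973 to 1.06, checked on the file). DESeq2 1.22.1 is named in the submitters' processing notes. The labels name both a strand-marking TruSeq kit and a SMARTER kit. Aligner, genome build, annotation and strand setting are not given in the sources used here, so genes are named by symbol.

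Counts were fitted in R 4.3.3 with edgeR 4.0.16 (filterByExpr, TMM, robust quasi-likelihood test, genotype alone) on all genes, with Benjamini-Hochberg adjustment over the 17496 genes tested and a threshold of 0.05. DESeq2 1.42.0 was the second call rule, over 17564 genes. Standard errors were derived from the fold change and its F statistic. Normalized counts are scaled by TMM to the average library, and log2 CPM used a prior count of 2. Exon lengths came from GENCODE M21 and promoters from RefSeq, whose builds may differ from the authors' own. The promoter motifs were chosen after the data were seen. The fits were tested on a single simulated data set, drawn with the means and dispersions of the edgeR fit. In it each recovered change had the right sign, while DESeq2, and edgeR to a lesser degree, called more unchanged genes than the threshold allows.

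The genes and lists were chosen with earlier results of these data known. The rule for named genes took all 10 genes and members of the wider list called by DESeq2 or without overlap. It also took the 5 genes most like *Eln* and *Fbn1*, and *Scx* and *Tnmd*. Values of the other tendon markers and of *Ctss* were added after they were seen. The *Ltbp* genes, *Efemp2*, *Fn1*, *Mmp9* and *Mmp12* were added for their roles after their values were seen. Replicates of a genotype differed far beyond sampling noise (chi-square per degree of freedom 36.6 to 190) and were taken as separate animals; n = 3 limits the precision. Alternatives were limma-voom (limma 3.58.1), other normalizations and filters, a replicate block, each library left out, the deposited normalized counts with a pseudocount of 1, and the muscle list removed or as a covariate.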

Additional observations from a re-analysis of the deposited data

How the results depend on the processing

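By edgeR, 2 of the 10 genes were called with no filter on low counts (*Fbn1* and *Mfap5*, with 83 genes called in all), and with single libraries left out the number of the 10 called ran from 0 to 2 and that of all genes from 0 to 544. The upper ends came without DTRScxLin replicate 2, where edgeR called *Fbn1* and *Fbn2*. DESeq2 called 2 of the 10 and 466 of all genes, and with single libraries left out 2 to 4 of the 10, the upper end again without DTRScxLin replicate 2. The number without overlap in the higher direction ran from 2 to 4, with 4 without that library, where the share over all genes was 16.8% (11.9% to 17.4% over the libraries left out). DESeq2's calls over all genes ran from 150 to 1564. Of the wider list, DESeq2 called 1 to 7 genes with a library left out, 7 without DTRScxLin replicate 2. limma-voom called 0 of the 10 and 0 genes in all. No pairing by replicate number was seen. Same-numbered libraries deviated from their group means with correlations of -0.19, -0.15 and -0.68, and no library correlated best with its own number. Deviations within a group sum to 0, so these values depend on each other, and a small shared effect could be missed. With the replicate block edgeR called 1 gene in all and 0 of the 10, and DESeq2 called 4 genes of the wider list (*Lox*, *Emilin2*, *Mmp9* and *Vcan*, with 725 over all genes) and the same 2 of the 10.

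Of 160 fits of single genes under an alternative, 145 kept their direction and side of the threshold, 6 passed the threshold where the fit as reported had not, and 9 turned in sign; 3 of the 10 genes (*Fbn1*, *Mfap5* and *Fbln5*) kept their sign throughout. The signs turned for *Fbn2* (-0.036), *Mfap2* (-0.071), *Emilin1* (-0.097) and *Fbln2* (-0.35) with the muscle covariate, and with a library left out for *Eln* (-0.45 to 0.45), *Mfap4* (-0.41 to 0.052), *Fbln1* (-0.18 to 0.065), *Fbln2* (-0.14 to 0.60) and the log2 ratio of *Fbn2* to *Fbn1* (-0.26 to 0.47). The cause was not tested.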
